A study of Mus musculus with 6 samples.

Results

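The genes described here are 38 genes of the endoplasmic reticulum (ER) folding machinery and of collagen processing, followed in polyadenylated RNA of mouse endosteal MSCs, mesenchymal stromal cells from the bone lining next to the marrow. They were taken by name from a list of ER chaperones, unfolded protein response genes and collagen-modifying enzymes, not by a rule on their values. The list was chosen with earlier results of these data known. All 38 were found among the 55471 genes of the table. All 38 passed the minimum of a mean of 1 RPKM (reads scaled for gene length and for library size) and are among the 12223 genes tested. The 3 libraries labelled Bap1 WT came from C57BL/6J mice with the floxed Bap1 alleles (Bap1fl/fl), and the 3 labelled Bap1 cKO from C57BL/6J mice of the genotype Prx1-cre;Bap1fl/fl, so that both groups carry the floxed alleles and the Cre recombinase is listed for the cKO group alone. Prx1 is a promoter of the limb bud mesenchyme, and Bap1 encodes a deubiquitinase of histone H2A. The labels give no age or sex and leave unsaid whether each library is a separate animal; p-values here measure only the spread between these samples, which may be technical. The comparison asks whether the secretory machinery followed the loss of collagen transcripts in the cKO libraries.

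Collagen chains are folded in the ER. Prolyl 4-hydroxylases stabilise the triple helix, lysyl hydroxylases prepare the sites of cross-links, prolyl 3-hydroxylase and its partners and the chaperone HSP47 attend the folding helix, and large carriers export it. The unfolded protein response adjusts the folding capacity through 3 sensors, IRE1 (Ern1), PERK (Eif2ak3) and ATF6, whose targets include the chaperones themselves. Stromal and osteoblast-lineage cells are known for their heavy collagen secretion and are rich in all of these proteins.

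Depth, estimated from the steps between low RPKM values, was 12.7 to 14.5 M fragments (M, mega) in 5 libraries and 21.7 M fragments in cKO replicate 3, and 3 fragments over a kilobase, taken as the floor, came to 0.138 to 0.236 RPKM. Every value of the 38 genes lay above that floor, which covers counting error only. Bap1 itself stood at 22.8, 22.72 and 24.01 RPKM among WT libraries and at 28.27, 25.16 and 22.99 under the cKO label (log2 difference 0.13 ± 0.096 SE, limma adjusted p = 0.29), and a value summed over the gene cannot show the removal of the floxed exons. Most mesenchymal stromal markers were lower in the cKO libraries. Of 11 markers 10 were tested, 7 were lower and 1 higher, and their summed level was 1020 to 1050 RPKM in the WT and 136 to 188 RPKM in cKO libraries. Of all genes tested 26.5% were called lower and 34.7% higher. The 7 endothelial markers, 8 epithelial markers and 8 haematopoietic markers summed to at most 0.81, 1.26 and 2.5 RPKM in any library, with Tie1, Cldn4, Grhl2 and Cd3e among those at 0 in all 6. The 9 osteoblast markers summed to 391 to 457 RPKM in the WT and 18.6 to 42.7 RPKM in cKO libraries, and Spp1 was the most abundant of them in every library. Of the 9, 6 (Sp7, Bglap, Bglap2, Ibsp, Dmp1 and Phex) were below 1 RPKM in all libraries of both groups, and 3 were tested. The osteoclast and macrophage list had 2 tested genes that went opposite ways: Cd68 was higher (2.14 to 6.37 RPKM in the group means, limma adjusted p = 0.00344), and Ctsk was lower, at 32.65 to 35.58 RPKM in the WT and 0.26 to 6.27 RPKM in cKO libraries, Sdc1 carried nearly all of the plasma cell list (80.2 to 87.3 against 49.7 to 53.7 RPKM summed), and Acta1 led the muscle list (summed, 9.02 to 10.2 RPKM among WT libraries and cKO replicate 3, and 0.62 and 1.33 RPKM in the other cKO libraries). The part of this change in cell markers in the results below was not tested, and in bulk RNA fewer cells of a type and less RNA per cell cannot be told apart.

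The sequences that tie part of the list together are the ER stress response elements of its promoters, shown here because they are the sites through which ATF6 and XBP1 are known to act. The element ERSE is CCAAT, then 9 free bases, then CCACG, and ERSE-II is ATTGG, 1 free base, then CCACG, both searched on both strands in windows of 300 bases (250 before to 50 after each start, RefSeq, GRCm38.p6). RefSeq windows were matched by symbol for 32 of the 38 genes, and Atf6, Creb3l1, Fkbp10, Hyou1, Manf and Plod2 had none. Capitals mark the fixed letters of the element, each run reads 5′ to 3′ on the strand of the gene, and CGTGG with ATTGG are the same letters read from the other strand:
Hspa5: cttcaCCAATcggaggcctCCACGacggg
Calr: caacgCGTGGtcgaccctcATTGGcccat
Hsp90b1, farther from the start: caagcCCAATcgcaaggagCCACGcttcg
Hsp90b1, nearer to the start: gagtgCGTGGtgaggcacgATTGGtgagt
Canx: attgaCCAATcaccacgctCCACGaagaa
Pdia6: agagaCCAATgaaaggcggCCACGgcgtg
Dnajc3: cacaaCCAATcagcgccaaCCACGacccg
Creld2: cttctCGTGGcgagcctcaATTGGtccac
Herpud1: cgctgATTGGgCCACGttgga
Dnajb11: cggcgATTGGcCCACGcctgg

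These runs lie at chr2:34772020-34772048 (Hspa5, plus strand), chr8:84847070-84847098 (Calr, minus strand), chr10:86705633-86705661 and chr10:86705528-86705556 (Hsp90b1, minus strand), chr11:50325795-50325823 (Canx, minus strand), chr12:17266486-17266514 (Pdia6, plus strand), chr14:118937822-118937850 (Dnajc3, plus strand), chr15:88819515-88819543 (Creld2, plus strand), chr8:94386372-94386392 (Herpud1, plus strand) and chr16:22857847-22857867 (Dnajb11, plus strand). The Hspa5 element began 65 bases before the RefSeq start and the distal Hsp90b1 element 212 bases before it, while that of Dnajb11 lay 7 to 17 bases after the first transcribed base. ERSE was found in 7 of the 32 genes (21.9%) against 39 of all 32851 windows (0.119%), and ERSE-II in 2 of 32 (6.25%) against 12 windows (0.0365%). The 32 are counted per gene and the background per window. Counted per gene, 0.154% of the 9096 tested genes with a window had ERSE and 0.0989% had ERSE-II. The list was drawn up by function, so its share describes its known membership and carries no test. The elements TGACGTGG (the core of the unfolded protein response element), TGACGTCA (the cyclic AMP response element) and TGATGCAAT (a composite C/EBP and ATF element) were in none of the 32 genes and in 0.676%, 1.79% and 0.192% of all windows. Per tested gene with a window, the shares were 1.02%, 3.72% and 0.143%. Of the 9 genes with ERSE or ERSE-II, 2 rose in the cKO libraries (Dnajc3 and Herpud1), 2 fell (Calr and Creld2) and 5 did not pass, with a median log2 difference of −0.09 and a range of −0.59 to 0.54. The other 23 genes with a window ranged from −1.88 to 2.04 with a median of −0.5, with 7 higher and 11 lower. Among all genes tested, 34.7% were called higher and 26.5% lower. None of the 9 is a collagen-processing gene, while the 23 include such genes, so element and role cannot be told apart here. Of the genes with no window, outside these counts, Plod2 (3.26), Hyou1 (0.77) and Manf (0.40) rose and Creb3l1 (−3.88) fell. A match of letters is a description and not a site.

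The summed transcript level of 38 collagen chain genes, a chosen list and not the whole family, was 5.24-fold lower in cKO libraries. That of the genes that process collagen overlapped between the groups. Col1a1 stood at 541.83, 462.77 and 539.91 RPKM among WT libraries and at 15.31, 14.64 and 71.44 in the cKO libraries, 15.2-fold lower (34.4-fold without cKO replicate 3). The summed RPKM of these 38 collagen chain genes was 5560 ± 263 in the WT and 1060 ± 139 in the cKO libraries (mean ± SD throughout, n = 3 per group). That of the 5 fibrillar chains Col1a1, Col1a2, Col3a1, Col5a1 and Col5a2 was 3140 ± 185 and 183 ± 110, 17.2-fold lower. This set of 5 was chosen with earlier results of these data known. It leaves out other fibrillar chains, among them Col2a1 (which did not pass), Col11a1 (56.5-fold higher) and Col5a3 (42.5-fold lower). The 14 collagen-processing genes summed to 2090, 1910 and 2030 RPKM among WT libraries and to 2130, 1730 and 2030 in the cKO libraries, and the groups overlapped (exact permutation test, 2-sided p = 0.8, n = 3). The summed level of processing genes per summed level of collagen chains was therefore 0.365, 0.362 and 0.357 in WT and 2.04, 1.85 and 1.68 in cKO libraries. The groups did not overlap on this ratio, which was 5.13-fold higher in the cKO libraries (exact permutation test, p = 0.1, the smallest that 3 against 3 allows).

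**Figure D1:**
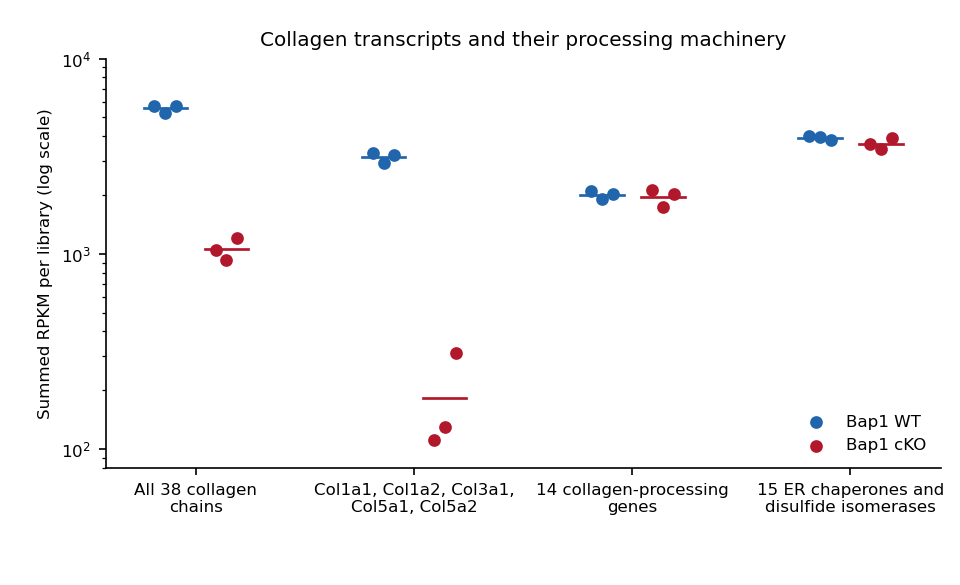
Summed RPKM per library on a log axis for the 38 listed collagen chains, for 5 fibrillar chains, for the 14 collagen-processing genes and for the 15 ER chaperones and disulfide isomerases. Points are libraries and short lines group means. The collagen sums separate the groups (5560 against 1060 RPKM for the 38 chains), and the sums of the processing genes overlap (2010 against 1960 RPKM).

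The makeup of the sum differed between the groups. Plod2 and Serpinh1 held 1.92% and 31% of it in WT and 19.4% and 44.3% in cKO libraries. Plod2 and Serpinh1 added 344 and 245 RPKM to the mean, and the rises of all members that went up came to 593 RPKM, while the other members together dropped by 643 RPKM, of which Pcolce dropped by 316 RPKM. Plod2 and Serpinh1 are the 2 genes of the 14 that were called higher, and the other 12, left over by that choice, summed to 1350 ± 45.3 RPKM in WT and 708 ± 93.4 RPKM in cKO libraries, which is a description and carries no test. With the geometric mean in place of the sum, which gives each of the 14 genes the same weight, the collagen-processing genes had a log2 difference of −0.69, against −0.041 for the sum.

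Of the 38 genes, 12 rose, 14 fell and 12 did not pass (limma on log2(RPKM + 1), Benjamini-Hochberg adjusted p under 0.05 over all genes tested), so that 68.4% were called. Of all genes tested 61.2% were called, 34.7% higher and 26.5% lower, so a call alone says little about these genes. The groups did not overlap for 31 of the 38 genes, 13 higher and 18 lower, where 69.0% of all tested genes did not overlap (39.2% higher and 29.8% lower). With each chromosome centred on its own median, 7 rose and 15 fell, and Manf, P4hb, Xbp1, Sel1l and Serpinh1 were no longer called higher. The sizes differed by role. The 24 ER and unfolded protein response genes had a median log2 difference of 0.042 (10 higher, 5 lower), and the 14 collagen-processing genes one of −0.84 (2 higher, 9 lower), beside 0.094 for all genes tested and −2.73 for the 23 collagen chains tested (5 higher, 15 lower). A difference of at least 1 on the log2 scale with a call was met by 3 of the 24 (12.5%), by 5 of the 14 (35.7%) and by 19 of the 23 collagen chains (82.6%), against 25.6% of all genes tested (13.4% higher and 12.3% lower).

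**Figure D2:**
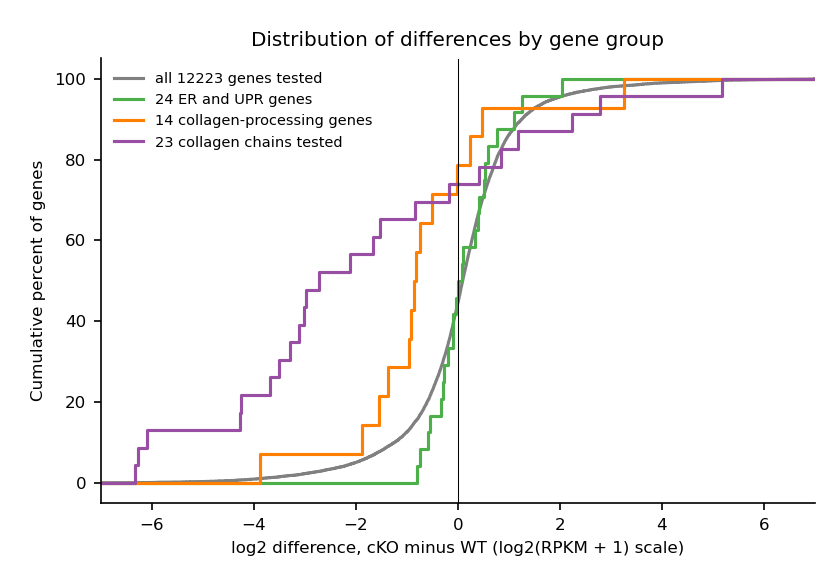
Cumulative percent of genes (vertical axis) by log2 difference between the cKO and WT libraries (horizontal axis) for all 12223 genes tested, 24 ER and unfolded protein response genes, 14 collagen-processing genes and 23 collagen chains. The ER genes range from −0.8 to 2.04 with a median of 0.042, the collagen-processing genes have a median of −0.84, and the collagen chains one of −2.73.

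The lysyl hydroxylases, which share a substrate, moved in opposite directions. Plod2, the enzyme of the collagen telopeptides (chromosome 9, 92542223 to 92608428, GRCm38, plus strand), stood at 38.29, 39.25 and 37.88 RPKM among WT libraries and at 466.13, 294.46 and 387.12 in the cKO libraries. The cKO libraries stood at 12.1, 7.65 and 10.1 times the WT mean, all above every WT library. The rise was 9.94-fold, a log2 difference of 3.26 ± 0.16 (SE, limma adjusted p = 1.63e-05), and exceeded that of 98.2% of the genes tested. Plod1, the enzyme of the helical lysines (chromosome 4, 147909753 to 147936767), stood at 47.85, 43.76 and 48.71 RPKM among WT libraries and fell to 15.18, 13.21 and 8.39 in the cKO libraries, 3.82-fold (limma adjusted p = 0.000327). Plod3, which also glycosylates hydroxylysine, fell 1.91-fold from 169.54, 130.82 and 157.69 RPKM to 72.81, 79.9 and 87.22 (limma adjusted p = 0.000715). The groups were apart for all 3 genes, as they were for 69.0% of all genes tested. Plod2 held 16.3 ± 1.82% of the summed lysyl hydroxylase RPKM in WT and 80.1 ± 4.07% in cKO libraries, and the sum of the 3 genes went from 238 ± 21.6 to 475 ± 83.6 RPKM. The Plod2 to Plod1 ratio was 0.8, 0.897 and 0.778 in WT and 30.7, 22.3 and 46.1 in cKO libraries.

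The prolyl 4-hydroxylase is a tetramer of catalytic alpha subunits with the disulfide isomerase P4hb as beta subunit, and its subunits parted. P4ha2 (chromosome 11, 54100095 to 54131665) stood at 116.23, 108.11 and 118.68 RPKM among WT libraries and fell to 32.39, 54.03 and 32.79, 2.88-fold (log2 difference −1.54 ± 0.20 SE, limma adjusted p = 0.000711). P4ha1 stood at 61.18, 58.96 and 56.5 RPKM among WT libraries and at 25.6, 20.68 and 50.1 in the cKO libraries, 1.83-fold lower (limma adjusted p = 0.0296). P4ha3 stood at 26.88, 26.02 and 27.17 RPKM among WT libraries and at 10.86, 6.13 and 41.26 in the cKO libraries. For P4ha1 and P4ha3 the libraries labelled cKO were divided: replicate 3 stood near the WT level of P4ha1 and above that of P4ha3. P4ha3 did not pass with all libraries (limma adjusted p = 0.255) and fell 3.14-fold without cKO replicate 3 (adjusted p = 0.00114). The call of P4ha1 was lost without any 1 of the 3 WT libraries or without cKO replicate 1 or 2 (limma adjusted p of 0.075 to 0.0912). The beta subunit P4hb, also an abundant disulfide isomerase in its own right, rose 1.26-fold from 616.11, 585.51 and 627.27 RPKM to 849.03, 769.24 and 692.36 (limma adjusted p = 0.0138). That call was lost under TMM and median-of-ratios scaling (0.062 and 0.072) and without WT replicate 2 (0.0542), and the direction turned with each chromosome centred (log2 −0.084). The summed alpha subunits per P4hb were 0.332, 0.33 and 0.323 in WT and 0.0811, 0.105 and 0.179 in cKO libraries, a ratio 2.69-fold lower with the groups apart (exact permutation p = 0.1, n = 3).

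**Figure D3:**
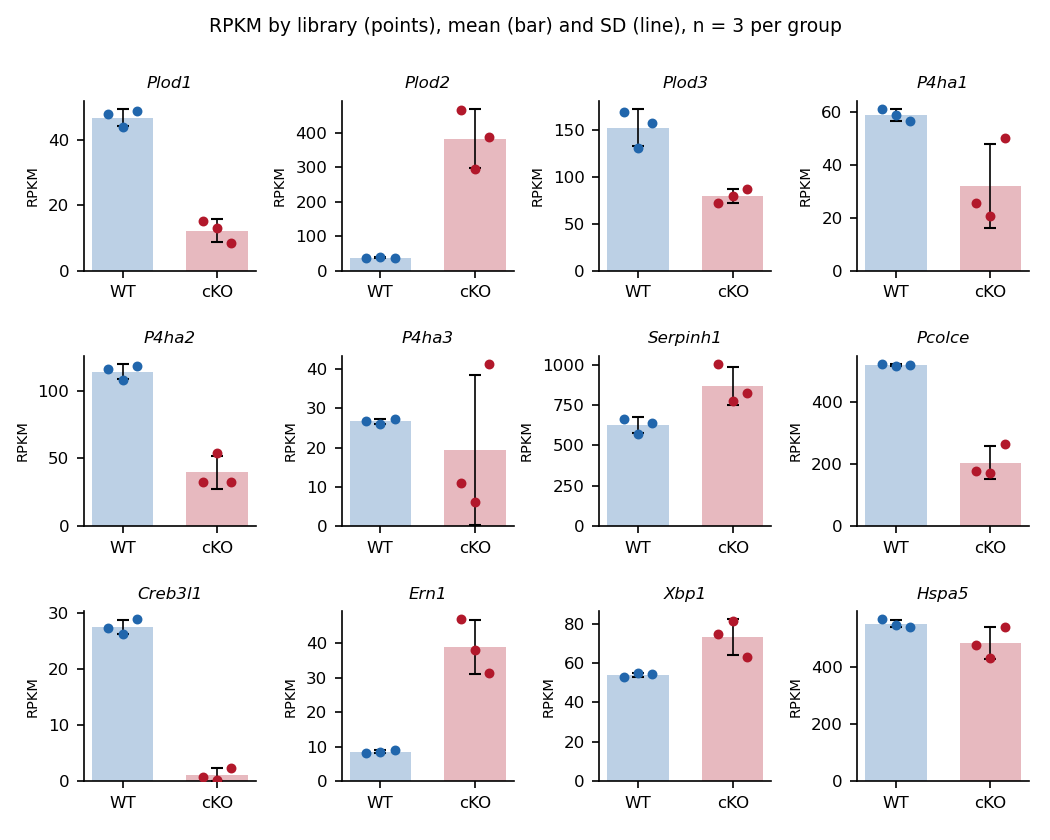
RPKM of 12 genes by library, with WT in blue and cKO in red; points are libraries, bars group means and lines the SD (n = 3 per group), on linear axes that start at 0. Plod2 and Ern1 stand above the WT libraries in all 3 cKO libraries, Plod1, Pcolce and Creb3l1 below them, and cKO replicate 3 stands at 41.26 RPKM of P4ha3 against 10.86 and 6.13 in the other cKO libraries.

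In the prolyl 3-hydroxylase complex, the scaffold fell and the enzyme did not pass. Crtap, the scaffold protein, fell 1.69-fold from 113.37, 106.82 and 116.57 RPKM to 58.59, 69.92 and 70.88 (limma adjusted p = 0.000617). P3h1, the enzyme that Crtap binds, stood at 24.35, 25.42 and 22.05 RPKM in WT and at 31.28, 26.91 and 27.19 RPKM in cKO libraries. Its groups did not overlap, and it did not pass (log2 difference 0.24 ± 0.097 SE, limma adjusted p = 0.0696). P3h3, which acts with Plod1 on helical lysines, fell 1.76-fold from 34.7 ± 0.932 to 19.7 ± 5.6 RPKM (limma adjusted p = 0.00736), with cKO replicate 3 at 26.11 RPKM against 16.85 and 16.03 in the others. P3h4, the partner of P3h3 and not on the list of 38, rose 2.05-fold from 36.6 to 75.2 RPKM (log2 difference 1.02, limma adjusted p = 0.000123), among nearest 100 genes at a median of 1.02, and its difference was 0.60 with each chromosome centred.

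The 2 collagen chaperones on the list kept high levels. Serpinh1 encodes HSP47, the chaperone of the collagen triple helix (chromosome 7, 99345376 to 99353239), and stood at 662.62, 568.23 and 640.31 RPKM among WT libraries and at 1004.45, 777.87 and 822.75 in the cKO libraries. All cKO libraries lay above all WT libraries, a 1.39-fold rise (log2 difference 0.47 ± 0.11 SE, limma adjusted p = 0.0105). The genes around Serpinh1 stood higher too: the nearest 100 tested genes had a median log2 difference of 0.54, and with each chromosome centred its direction turned (log2 −0.17, limma adjusted p = 0.249). Serpinh1 per Col1a1 was 1.22, 1.23 and 1.19 in the WT and 65.6, 53.1 and 11.5 in the cKO libraries. Fkbp10, a prolyl isomerase of procollagen, stood at 164.55, 141.42 and 147.73 RPKM in WT and at 157.15, 145.71 and 147.86 RPKM in cKO libraries, and the groups overlapped (limma adjusted p = 0.943). Its neighbours stood at a median log2 difference of 1.02, and it was lower once each chromosome was centred (log2 −0.42, limma adjusted p = 0.00453).

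The genes of export, maturation and transcription all fell. Creb3l1 encodes OASIS, a membrane-bound transcription factor known to drive type I collagen transcription in osteoblasts (chromosome 2, 91982328 to 92024502, minus strand). It stood at 27.43, 26.34 and 28.93 RPKM among WT libraries and at 0.67, 0.28 and 2.44 in the cKO libraries, with replicate 3 the highest of the cKO libraries and all of them far under the WT libraries. It fell 24.4-fold, and 58-fold without cKO replicate 3 (log2 difference −3.88 ± 0.35 SE, limma adjusted p = 0.000161), and 1.07% of the genes tested had a lower log2 difference. Pcolce, the enhancer of the procollagen C-proteinase, stood at 523.47, 518.22 and 522.59 RPKM among WT libraries and fell to 177.12, 171.19 and 266.69 in the cKO libraries, 2.54-fold (limma adjusted p = 0.000583). Mia3 (TANGO1), the receptor that loads procollagen at ER exit sites, fell 1.42-fold from 76.4 ± 1.75 to 53.9 ± 3.01 RPKM (log2 −0.50, limma adjusted p = 0.00112, or −0.33 and 0.00681 with chromosomes centred). The groups did not overlap for these 3 genes, which was also so for 69.0% of all genes tested.

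**Figure D4:**
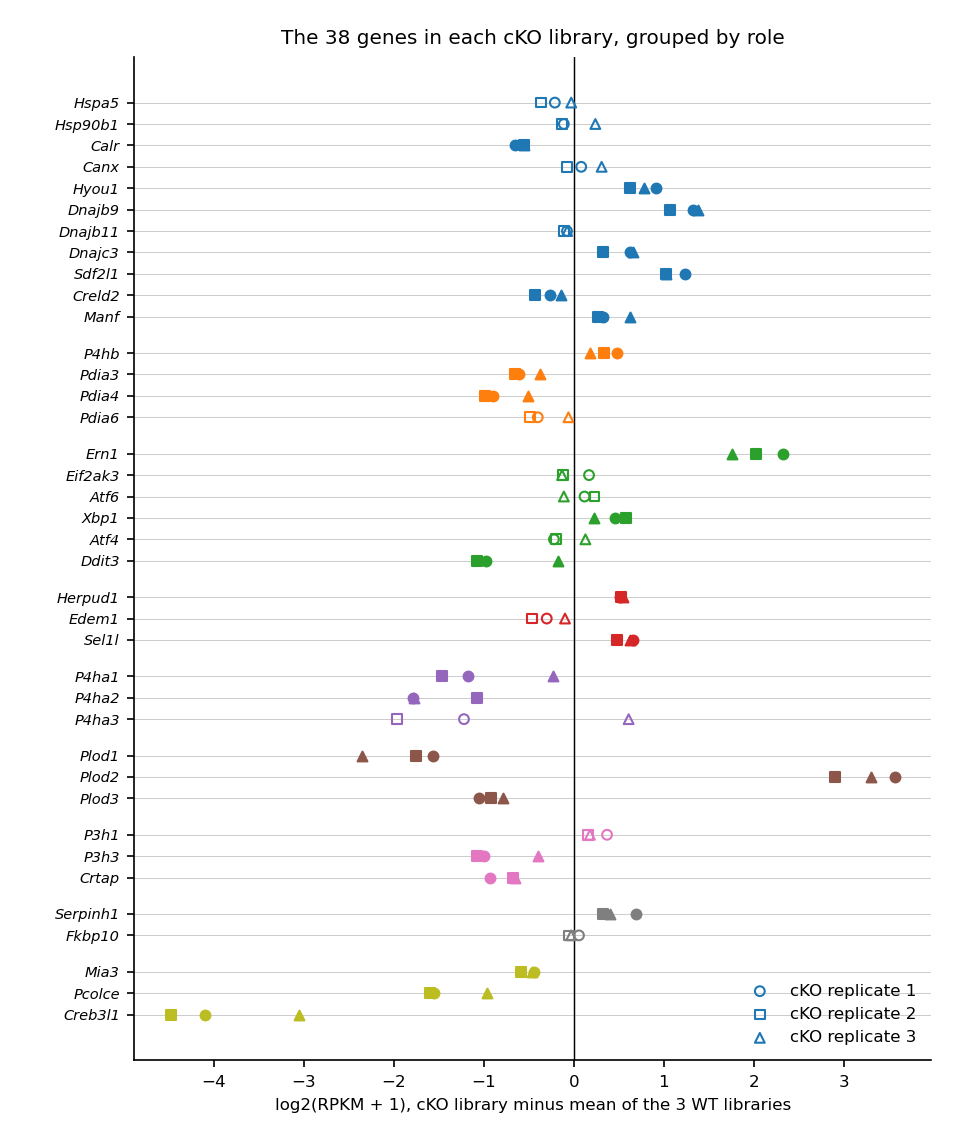
Difference in log2(RPKM + 1) between each cKO library and the mean of the 3 WT libraries for the 38 genes, grouped by role from ER chaperones (top) to export, maturation and transcription (bottom). Circles, squares and triangles are cKO replicates 1, 2 and 3, and open symbols mark genes that did not pass; most genes lie within 1 of 0, with Plod2 and Ern1 to the right and Creb3l1, Plod1 and P4ha2 to the left.

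Of the 4 abundant chaperones Hspa5, Hsp90b1, Canx and Calr, only Calr passed the test. Hspa5 (BiP), the central ER chaperone, stood at 569.78, 549.7 and 543.74 RPKM in WT and at 480.04, 432.91 and 543.72 RPKM in cKO libraries, and did not pass (log2 difference −0.20 ± 0.09 SE, limma adjusted p = 0.0997). It passed as lower without cKO replicate 3 (0.00888) and under TMM and median-of-ratios scaling (0.0287 and 0.0271). Hsp90b1 (GRP94) stood at 612 ± 17.7 and 616 ± 90.9 RPKM and the lectin chaperone Canx at 199 ± 10.7 and 216 ± 29.3 RPKM in the WT and cKO libraries, and neither passed (limma adjusted p = 0.999 and 0.418). Calr, the soluble partner of Canx, was the most abundant of the 38 genes in the WT libraries and fell 1.5-fold from 793.28, 774.31 and 718.08 RPKM to 483.14, 519.97 and 518.8 (limma adjusted p = 0.000395). The 15 folding chaperones and disulfide isomerases together summed to 3920 ± 77.3 RPKM in the WT and 3660 ± 243 RPKM in cKO libraries (exact permutation p = 0.2, n = 3).

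Of the 11 folding chaperones and co-chaperones, 5 rose, 2 fell and 4 did not pass, and the 5 that rose were Dnajb9, Sdf2l1, Hyou1, Dnajc3 and Manf. These calls covered 63.6% of the 11, beside 61.2% of all genes tested (34.7% higher and 26.5% lower). Dnajb9 (ERdj4), a J-domain partner of BiP, rose 2.63-fold from 5.94, 6.84 and 5.99 RPKM to 17.22, 14.24 and 17.92 (log2 difference 1.26 ± 0.12 SE, limma adjusted p = 0.000196). Sdf2l1, which acts in the ERdj3 complex, rose 2.2-fold from 14.99, 13.81 and 18.66 RPKM to 38.38, 33.06 and 33.18 (limma adjusted p = 0.000496). Both genes had all cKO libraries above all WT libraries, as did 39.2% of all genes tested. The nearest 100 genes of Dnajb9 had a median log2 difference of 0.69, and centring each chromosome brought Dnajb9 to 0.70 (limma adjusted p = 0.00247) and Hyou1 from 0.77 to 0.42 (0.00929). Hyou1, the nucleotide exchange factor GRP170, rose 1.73-fold to 67.7 ± 7.06 RPKM, Dnajc3 (p58IPK) 1.47-fold to 42.7 ± 5.57 and Manf, a secreted ER stress protein, 1.33-fold to 245 ± 32.6 RPKM (limma adjusted p = 0.000597, 0.00558 and 0.0119). The call of Manf was lost with each chromosome centred (0.627). Dnajb11 (ERdj3), the partner of Sdf2l1, stood at 79.9 ± 2.11 and 75.2 ± 1.18 RPKM and did not pass (limma adjusted p = 0.254), although it passed as lower under TMM and median-of-ratios scaling (0.0327 and 0.0338). Creld2, an ER stress-induced disulfide isomerase-like protein, fell 1.22-fold to 34.1 ± 3.44 RPKM, a call (limma adjusted p = 0.0467) that was lost without any 1 of the WT libraries or without cKO replicate 1 or 2 (0.0554 to 0.141), with the replicate number as a block (0.0549), with no filter on low values (0.0622), and with each chromosome centred (0.355).

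The remaining disulfide isomerases went down or did not pass, apart from the rise of P4hb. Pdia3 (ERp57), which works with calreticulin and calnexin, fell 1.45-fold from 473.43, 467.68 and 434.66 RPKM to 300.88, 291.38 and 355.09 (limma adjusted p = 0.00224). Pdia4 fell 1.73-fold from 135.9, 129.29 and 129.27 RPKM to 70.15, 65.64 and 91.74 (limma adjusted p = 0.00189). Pdia6 stood at 200 ± 3.58 and 161 ± 26.4 RPKM and narrowly missed the threshold (limma adjusted p = 0.0511), and passed as lower without cKO replicate 3 (0.00086), under TMM and median-of-ratios scaling (0.0198 and 0.0179) and with sample weights (0.00429). With each chromosome centred its log2 difference went from −0.32 to −0.88 (0.000779), among neighbours at 0.62, and that of Pdia4 from −0.80 to −0.53 (0.0092).

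Of the sensors and transcription factors of the unfolded protein response, those of the IRE1 branch rose. Ern1 (IRE1), the sensor whose ribonuclease splices Xbp1 mRNA (chromosome 11, 106394650 to 106487852, minus strand), stood at 8.17, 8.57 and 8.96 RPKM among WT libraries and at 46.98, 38.17 and 31.49 in the cKO libraries. It rose 4.54-fold (log2 difference 2.04 ± 0.15 SE, limma adjusted p = 7.18e-05), while the nearest 100 tested genes had a median log2 difference of 0.98. Xbp1 rose 1.35-fold from 53.03, 55.05 and 54.14 RPKM to 74.68, 81.23 and 63.08 (limma adjusted p = 0.0113), and centring each chromosome ended that call (0.985), while its nearest 100 genes had a median log2 difference of 0.081. A gene-level RPKM does not tell spliced from unspliced Xbp1. Eif2ak3 (PERK) stood at 9.73 ± 0.28 and 9.58 ± 1.27 RPKM and Atf6 at 11.6 ± 0.359 and 12.4 ± 1.57 RPKM, and in both the groups overlapped (limma adjusted p = 0.852 and 0.541). Atf4, the effector of PERK, stood at 229 ± 2.52 and 215 ± 30.6 RPKM and did not pass (0.437), but passed as lower without cKO replicate 3 (0.0089). Ddit3 (CHOP), the stress-induced target of ATF4, stood at 39.4, 35 and 34.5 RPKM among WT libraries and at 18.07, 16.79 and 31.96 in the cKO libraries, 1.63-fold lower (limma adjusted p = 0.0314). That call was lost without any 1 WT library or without cKO replicate 1 or 2 (0.0748 to 0.102). The symbol Ddit3 stood on a second identifier, which was at 0 in every library.

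In ER-associated degradation, Herpud1, a scaffold of the degradation complex, rose 1.44-fold from 47.03, 37.67 and 40.91 RPKM to 59.63, 60.08 and 61.61 (limma adjusted p = 0.00311). Sel1l, the adaptor of the ubiquitin ligase, rose 1.53-fold from 19.5 ± 0.715 to 29.9 ± 1.98 RPKM (limma adjusted p = 0.00109), in a region whose nearest 100 genes had a median log2 difference of 0.62, and the call was lost with each chromosome centred (0.813). Edem1, the mannosidase-like lectin, stood at 24.8 ± 1.12 and 20.2 ± 2.68 RPKM and did not pass (limma adjusted p = 0.0606), but passed as lower when cKO replicate 3 was left out (0.00934) and when scaled by TMM, median of ratios or quantiles (0.0236, 0.0226 and 0.0296).

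The position of each gene was set beside its chromosomal neighbours, since whole chromosomes stood higher in the cKO libraries: the median log2 difference of the tested genes was 0.64 on chromosome 7, 0.58 on chromosome 12, 0.44 on chromosome 4, 0.42 on chromosome 11 and 0.34 on chromosome 9. Of the 12 genes that rose, 8 exceeded the median of their nearest 100 tested genes by over 0.2 on the log2 scale, and 4 (Manf, P4hb, Sel1l and Serpinh1) did not. All 14 genes that fell lay more than 0.2 below their neighbours. Both counts are over genes picked by their call, which favours such a distance. The share among all called genes was not computed, so the counts are a description and carry no test. Sdf2l1 rose by 1.1 among neighbours at −0.11 and Plod2 by 3.26 among neighbours at 0.27, while P3h1 (0.24) and Fkbp10 (−0.0073) stood among neighbours at 0.97 and 1.02. The part of the regional shift in these values was not tested further.

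**Figure D5:**
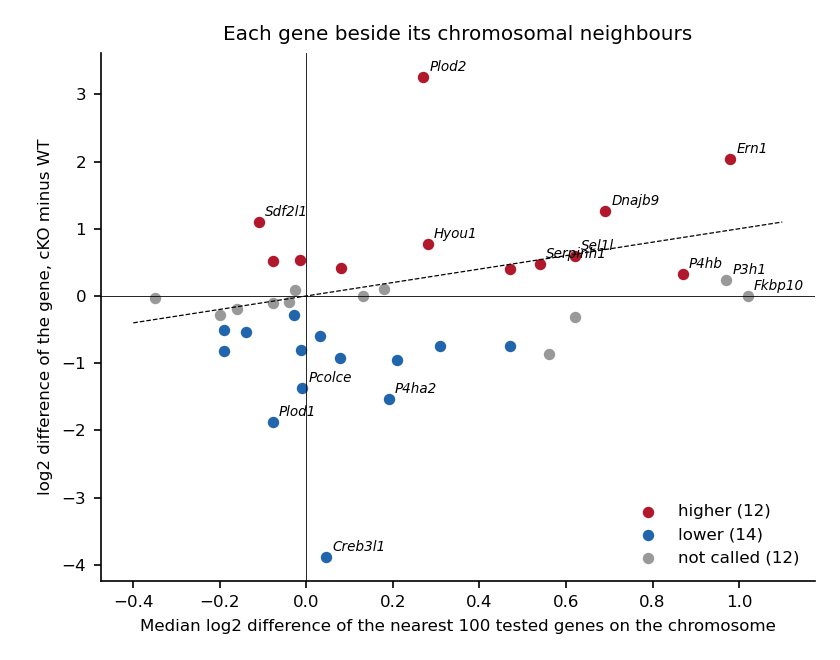
Log2 difference of each of the 38 genes (vertical axis) against the median log2 difference of the nearest 100 tested genes on its chromosome (horizontal axis), coloured by call; the dashed line marks equality. Plod2, Ern1 and Sdf2l1 lie above the line, Serpinh1 and Sel1l close to it, P4hb, P3h1 and Fkbp10 under it, and every gene that fell lies below it.

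The libraries of the cKO group differed among themselves more than those of the WT group. The median coefficient of variation of the 38 genes was 4.14% among the WT and 13.2% among the cKO libraries, and it was larger in the cKO group for 32 of 38 genes. Of the 14 genes that fell, cKO replicate 3 was the cKO library nearest to the WT mean in 10, and of the 12 that rose, in 3. Without cKO replicate 3, 12 of the 38 genes were higher and 19 lower. Calls over all genes tested rose as well, from 4237 higher and 3239 lower to 4517 and 3588 without that library. Over all genes tested the WT libraries correlated at 0.987 to 0.988 and the cKO libraries at 0.948 to 0.974. The spread and nearest-library counts above were not computed for all genes.

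The wider pathway lists were read by count alone. Of 14 tested other collagen biosynthesis genes 5 rose and 6 fell (median log2 difference 0.13). That is 78.6% called, beside 61.2% of all genes tested (34.7% higher and 26.5% lower). Bmp1, the procollagen C-proteinase that Pcolce enhances, fell 2.7-fold from 88.8 to 32.9 RPKM, and the prolyl isomerase Fkbp9 fell 2.29-fold from 266 to 116 RPKM (limma adjusted p = 2.81e-05 and 5.89e-05). Ppib, chosen after its values were seen as the cyclophilin partner of P3h1 and Crtap, was higher, at 349.9, 358.64 and 347.1 RPKM in the WT and 429.56, 428.55 and 464.93 in the cKO libraries (limma adjusted p = 0.00334, and 0.752 with each chromosome centred). Mia2, the partner of Mia3 at ER exit sites, rose 1.5-fold, and centring each chromosome ended that call (limma adjusted p = 0.988).

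Collagen chains did not all fall, nor did all fibrillar ones. Col2a1, the cartilage chain, chosen after its values were seen, did not pass (77.8 RPKM in the WT mean, and 19.23, 43.69 and 93.74 RPKM in cKO libraries, limma adjusted p = 0.194). The fall was deepest in Col3a1 (263 ± 9.16 against 3.12 ± 3.2 RPKM, 84.4-fold, or 203-fold without cKO replicate 3) and Col1a2 (78.7-fold, and 122-fold without cKO replicate 2), and Col6a2 fell 11.3-fold. The basement membrane chain Col4a2 rose 2.3-fold from 79.9 to 184 RPKM and the minor fibrillar chain Col11a1 56.5-fold from 2.4 to 136 RPKM. Col4a1, chosen after its values were seen, went from 167 ± 10.9 to 303 ± 14.2 RPKM. Relative to it, Serpinh1 was 3.72 ± 0.0548 in the WT and 2.86 ± 0.263 in the cKO libraries, and Plod2 was 0.231 ± 0.0194 and 1.26 ± 0.226.

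Targets of ATF4 and the integrated stress response fell in 9 of 20 tested cases and rose in 6 (median log2 difference −0.47). So 75.0% were called, beside 61.2% of all genes tested (26.5% lower and 34.7% higher). Sesn2, a stress-induced regulator of growth signalling, fell 5.11-fold from 15.7 to 3.07 RPKM, and Nars, an aminoacyl-tRNA synthetase, 2.15-fold (limma adjusted p = 9.46e-05 and 0.000255). Vldlr and the secreted glycoprotein Stc2 went the other way, from at most 0.08 and 0.07 RPKM in any WT library, under the floor, to 20.84, 27.86 and 22.77 and to 200.2, 136.58 and 78.03 RPKM in cKO libraries. Of 35 tested other targets of XBP1 and ATF6, 11 rose, 6 fell and 18 did not pass (median 0.11), so 48.6% were called beside 61.2% of all genes. The count of lower genes was 3 without WT replicate 1 or WT replicate 3, and 10 under TMM and median-of-ratios scaling. Spcs2, a signal peptidase subunit, rose 2.37-fold and the thiol retention protein Erp44 2.11-fold (log2 1.23 and 1.05, or 0.59 for each with chromosomes centred), while Erp29 fell 1.53-fold and Ssr4 1.21-fold, and centring each chromosome ended the call of Ssr4 (limma adjusted p = 0.0776).

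In the COPII coat and retrieval list 9 of 20 genes fell and 2 rose (median log2 difference −0.19). With 55.0% called in either direction, the list stood below the 61.2% of all genes tested. By direction, 9 of the 20 were called lower and 2 higher, where 26.5% of all genes tested were called lower and 34.7% higher. Kdelr3, a receptor that returns KDEL-bearing chaperones to the ER, fell 5.3-fold from 65.2 to 12.3 RPKM (limma adjusted p = 8.88e-05), and its paralog Kdelr1 rose 1.39-fold from 64.5 to 89.5 RPKM, a direction that turned with each chromosome centred (log2 −0.17). Mcfd2, which acts with the cargo receptor Lman1, fell 2.15-fold, and the cargo receptor Tmed10 rose 1.69-fold (log2 0.76, or 0.19 with chromosomes centred). All 3 tested relatives of Creb3l1 and Atf6 rose, where 34.7% of all genes tested were called higher. Creb3 rose 1.72-fold from 28.8 to 49.6 RPKM (log2 0.77), among nearest 100 genes at a median of 1.03, and stood at 0.31 with chromosomes centred. Creb3l2 rose 1.57-fold from 15.8 to 24.8 RPKM, among neighbours at −0.064. The remaining gene of the 3, Atf6b, is outside the rule for named genes and is given after its values were seen, at 20.7 and 32.4 RPKM.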

How the data were processed

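PolyA-selected, stranded RNA libraries read as 151 bp pairs were made from 6 samples, 3 per genotype. Per the submitters' processing notes, the tools were cutadapt 2.8, STAR 2.7.1a and RSEM 1.3.1 with GRCm38, and the annotation version is not given in the sources used here. The authors deposited 1 table of RPKM values per gene and library, and no read counts were used. Symbols and positions came from GENCODE M21 and matched 55144 of 55471 identifiers. Genes whose 6-library mean reached 1 RPKM were compared as log2(RPKM + 1) with limma 3.58.1 in R 4.3.3 (empirical Bayes with a mean trend, genotype only), and p-values were adjusted by Benjamini-Hochberg over 12223 genes. The pseudocount understates the change of low genes. Sums and ratios were compared by exact 2-sided permutation tests of 3 against 3 libraries, which cannot go below 0.1. Depth was estimated from the steps of low RPKM values, of which 88.7 to 92.9% fell no more than 0.2 from whole fragments, against 40% by chance. The limma code was tested on simulated data. Promoter letters were searched in RefSeq windows. Members and gene lists were chosen with earlier results of these data known. All 38 members are named, and of each further list the 2 genes with the smallest p in each direction, beside Col1a1, Col1a2 and Col3a1. Other genes named (Ppib, Col4a1, Col2a1 and Atf6b) were chosen after their values were seen. Alternatives were the pseudocount, the filter, 3 scalings, sample weights, a replicate block, each library left out and, chosen after seeing the data, centring each chromosome.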

Additional observations from a re-analysis of the deposited data

How the results depend on the processing

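Of 608 values of the 38 genes under 16 alternatives, 537 kept direction and side of the threshold. With direction kept, 26 lost a call (7 genes) and 21 gained one (8 genes). Direction turned in 24 (10 genes), among them P4hb and Serpinh1 with each chromosome centred, which also lost their calls there. The cause was not tested. With the geometric mean in place of the sum, the log2 difference was −1.27 for collagen chains (−2.40 for the sum), −0.69 for the collagen-processing genes and 0.58 for their ratio. The chain value, also used in that ratio, was taken at RPKM + 1 over all 38 chains. It gives chains near 0 RPKM in every library the same weight as the others. The 23 chains tested had a median log2 difference of −2.73. With 1 library left out, the processing sum ranged from −0.1 to 0.048 and was above 0 without cKO replicate 2. Genes of the 38 called higher and lower were 11 and 18 under TMM and median-of-ratios scaling, 12 and 11 with no filter, 7 and 15 with each chromosome centred, and 11 to 12 and 11 to 19 with 1 library left out. Calls over all genes moved too, from 4237 higher and 3239 lower to 3651 and 3758 under TMM scaling. They were 3632 and 3765 under median-of-ratios scaling, 4714 and 3862 with no filter, and 3353 and 3579 with each chromosome centred. With 1 library left out they were 3475 to 4517 and 2695 to 3588. Collagen chains called higher were 3 with a minimum mean of 5 RPKM, other collagen biosynthesis genes called higher 2 with each chromosome centred, and CREB3 relatives called higher 5 with no filter. XBP1 and ATF6 targets called lower were 10 under TMM and median-of-ratios scaling and 3 to 9 with 1 library left out, with 3 without WT replicate 1 or WT replicate 3. COPII genes called higher were 1 with each chromosome centred and 2 to 4 with 1 library left out, with 4 without cKO replicate 3.

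Directions turned under TMM and median-of-ratios scaling for Canx (−0.0039 and −0.0054) and Atf6 (−0.019 and −0.02), and under quantile normalization for Hsp90b1 (0.13), Atf6 (−0.013) and Fkbp10 (0.06). Sample weights turned Eif2ak3 (0.008). Centring each chromosome turned Canx (−0.31), Dnajb11 (0.13), P4hb (−0.084), Eif2ak3 (0.25), Atf4 (0.056), P3h1 (−0.22), Serpinh1 (−0.17) and Kdelr1 (−0.17). With 1 library left out, Hsp90b1 ranged from −0.12 to 0.065, Eif2ak3 from −0.12 to 0.025 and Fkbp10 from −0.054 to 0.055.

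With the replicate number as a block, 12 of the 38 genes were higher and 13 lower, and of all genes 3811 and 2938. Deviations of same-numbered libraries correlated at −0.017, 0.05 and −0.019, where all pairs ranged from −0.042 to 0.05, and not every library correlated best with its own number. With 3 libraries per group these values cannot show whether libraries of the same number share an origin or a batch. The number of libraries and a depth known only by estimate limit the precision.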
